A study of Homo sapiens with 25 samples.

Results

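Genes of retinoid metabolism and retinoic acid response (STRA6, DHRS3, CYP26A1, TGM2 and CD38) were followed through the peak lists of a ChIP-seq study of NB4 cells. NB4 is a human acute promyelocytic leukemia cell line that carries the PML-RARA fusion and differentiates when given retinoic acid (RA). Members were all peaks of the 23 lists that overlapped a window around each gene on the hg18 build. They numbered 479 of 918840 peaks. The windows were chr15:72240001-72300000 for STRA6 (55 peaks), chr1:12530001-12620000 for DHRS3 (153 peaks), chr10:94800001-94850000 for CYP26A1 (35 peaks), chr20:36170001-36250000 for TGM2 (140 peaks) and chr4:15370001-15480000 for CD38 (96 peaks). By antibody they comprised 133 H3K4me1, 136 H3K4me2, 60 H3K4me3, 116 H3K27ac, 25 LSD1 and 9 GFI1 peaks.

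Cells were treated for 24 h with DMSO (the vehicle), with the LSD1 inhibitor MC_2580, with RA at either 0.01 µM or 1 µM, or with MC_2580 together with RA at 0.01 µM, called the combination here. The 4 histone marks were profiled in all 5 conditions, LSD1 in DMSO and with MC_2580, and GFI1 in cells given no treatment. Each group held 1 library, so no difference below has a replicate check and no test was possible: values are set side by side. The title of the H3K4me3 combination library names RA at 1 µM, whereas 0.01 µM stands in its treatment field and in the series' design, so its dose is uncertain wherever that library is used. No source used here gives the inhibitor's dose. Gene positions on hg18 were not used here, so peaks are described by window and not by promoter, exon or intron. In the RefSeq gene table the nearest coding neighbours include CYP26C1 beside CYP26A1, BST1 beside CD38, and ISLR and CCDC33 beside STRA6. A peak in a window may belong to a neighbour.

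Retinol taken up by cells is oxidised to retinaldehyde and then to RA, which binds nuclear RA receptors. These receptors sit on DNA as dimers with retinoid X receptors, hold corepressors in the absence of ligand and recruit coactivators, including histone acetyltransferases, when RA binds. Several genes switched on by RA act back on the pathway: CYP26A1 is the cytochrome P450 that oxidises and clears RA, and DHRS3 reduces retinaldehyde back to retinol. STRA6 is the membrane receptor that takes up retinol from retinol binding protein. TGM2 encodes tissue transglutaminase, a protein crosslinking enzyme, and CD38 a surface enzyme that consumes NAD; both are long-known RA-induced genes of myeloid leukemia cells. H3K4me1 marks enhancers, H3K4me3 promoters, H3K4me2 both, and H3K27ac their active forms. LSD1 is a demethylase of H3K4me1 and H3K4me2, and GFI1 a repressor that recruits it.

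The RA response element is a direct repeat of a hexamer, and such a repeat can be shown in a promoter of CYP26A1. RefSeq promoter sequences on GRCh38.p14 were at hand for CYP26A1, DHRS3, CD38 and STRA6, as 11 entries of 300 bases (250 before and 50 after a transcription start); for TGM2 none was matched. The hexamers AGGTCA or AGTTCA or GGGTCA or GGTTCA were searched on both strands, as were direct repeats of them with 1, 2 or 5 bases between. A repeat was found in 1 entry, the CYP26A1 promoter at chr10:93073643-93073942 (plus strand), where 2 hexamers 5 bases apart read AGTTCACCCAAAGTTCA on the strand opposite to the gene, 90 to 74 bases before the start. The CD38 promoter at chr4:15778078-15778377 (plus strand), also printed, held 1 single hexamer, GGGTCA, on the gene's strand. The DHRS3 and STRA6 entries held no repeat either. Capitals mark the hexamers.
CYP26A1: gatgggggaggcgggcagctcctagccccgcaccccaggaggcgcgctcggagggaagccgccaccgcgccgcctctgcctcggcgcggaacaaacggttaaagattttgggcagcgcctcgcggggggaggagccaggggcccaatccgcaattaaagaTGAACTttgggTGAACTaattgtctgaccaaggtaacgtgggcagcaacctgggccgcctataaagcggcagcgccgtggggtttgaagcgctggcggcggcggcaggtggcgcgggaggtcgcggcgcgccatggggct
CD38: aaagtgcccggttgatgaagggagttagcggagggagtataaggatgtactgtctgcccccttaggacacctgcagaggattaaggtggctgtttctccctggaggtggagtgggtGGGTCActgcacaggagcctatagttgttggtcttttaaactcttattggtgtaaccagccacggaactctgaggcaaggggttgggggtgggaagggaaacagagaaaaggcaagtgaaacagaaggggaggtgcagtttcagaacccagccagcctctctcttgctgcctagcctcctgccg
Of the 35116 promoters of the table, 38.6% held at least 1 such hexamer, 0.0883% a direct repeat spaced by 5 bases, and 0.259% a repeat of any of the 3 spacings. A single hexamer is therefore common among promoters, and a match describes the letters in this interval and not a bound site. The entries lie on another build than the peaks and were not placed in the windows, so a link between repeats and peaks was not tested.

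Over the 5 windows together, all 4 marks covered more bases in each RA-containing condition than in DMSO, and H3K27ac showed the widest gap. H3K27ac peaks covered 48.6 kb in DMSO, 35.9 kb with MC_2580, 211 kb with RA at 0.01 µM, 188 kb with RA at 1 µM and 183 kb in the combination. The ratios to DMSO were 0.740, 4.35, 3.86 and 3.77, whereas the same ratios over the entire lists were 0.748, 1.56, 1.12 and 1.17. With MC_2580 alone the ratio of the windows together was thus near that of the list. Single windows differed, from 0.245 at STRA6 to 1.11 at DHRS3, and CYP26A1 had no peak in either list. With RA the ratios of the windows together exceeded those of the lists. H3K4me3 covered 19.8 kb in DMSO, 34.2 kb with MC_2580, 66.2 kb and 75.1 kb with the lower and higher RA dose, and 63.8 kb in the combination. Its ratios of 1.73, 3.34, 3.79 and 3.22 stood beside 1.57, 1.50, 1.33 and 1.32 for the lists.

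H3K4me1 and H3K4me2 showed smaller gaps of the same direction with RA. H3K4me1 covered 81.0, 89.7, 133, 160 and 165 kb in DMSO, MC_2580, RA at 0.01 µM, RA at 1 µM and the combination. These are ratios of 1.11, 1.64, 1.97 and 2.04, while the lists had 0.989, 0.793, 0.881 and 1.04. The combination value falls under 2-fold without the TGM2 window, at 1.76, and is 1.96 both with lists of equal length and as a share of the list. H3K4me2 covered 20.8, 22.0, 36.2, 48.3 and 52.6 kb, with ratios of 1.06, 1.74, 2.33 and 2.53 against 1.05, 0.937, 0.919 and 1.08 for the lists. For both marks the windows were covered more with RA although the lists as a whole covered about the same or fewer bases.

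**Figure D1:**
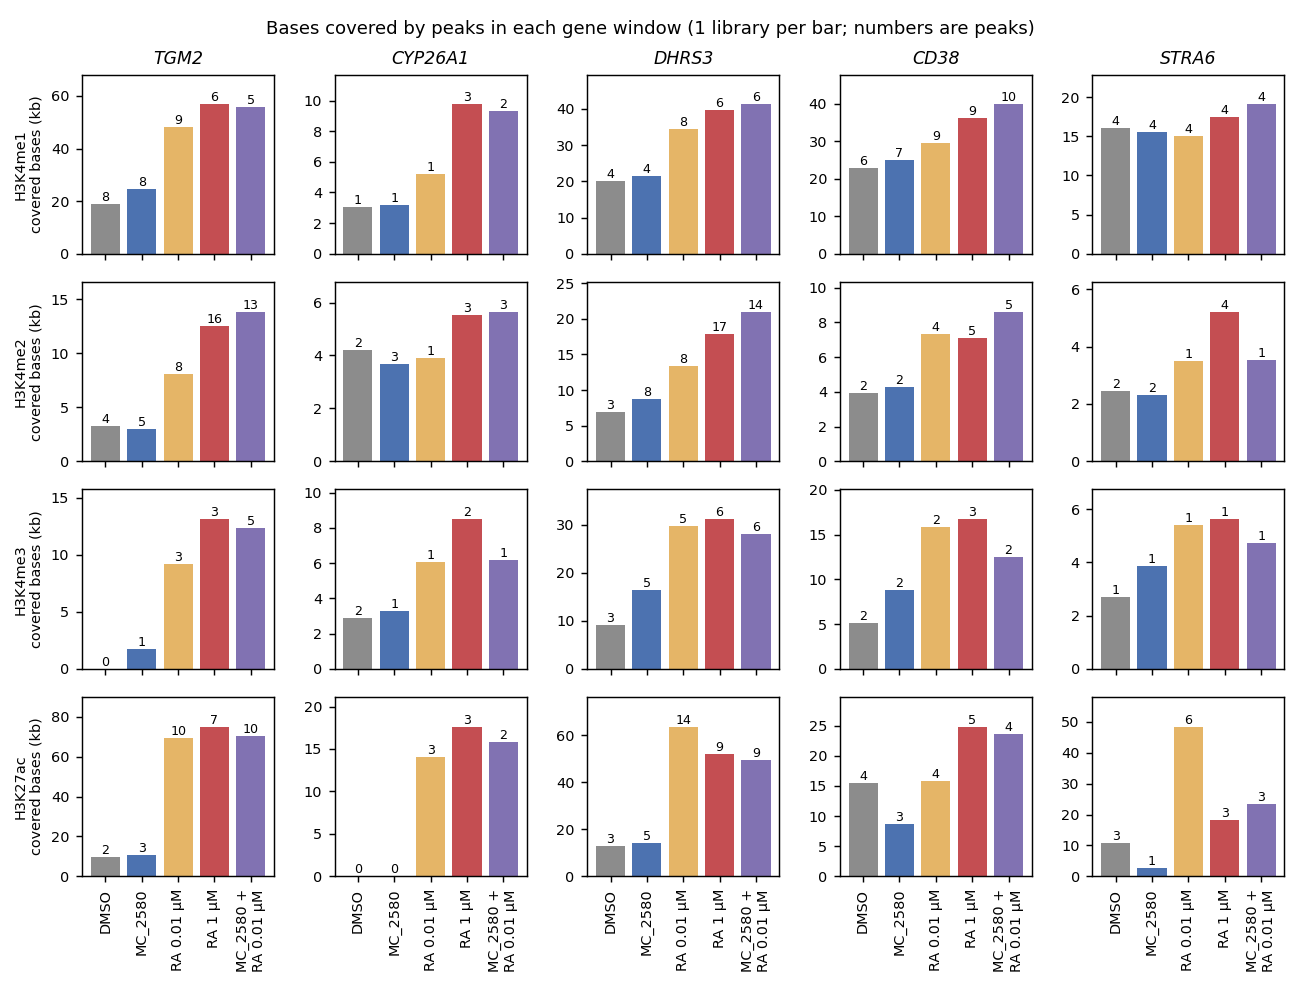
Bases covered by peaks (kb, vertical axis, scaled per panel) in each gene window (columns) for each histone mark (rows) and condition (bars, 1 library each); the number above a bar is its count of peaks. TGM2 H3K4me3 and CYP26A1 H3K27ac have no peak in DMSO, and the 3 RA-containing bars stand above DMSO and MC_2580 in the H3K27ac panels of TGM2, CYP26A1, DHRS3 and STRA6.

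A peak of a treated list without an overlapping DMSO peak of the same antibody was called gained, and a DMSO peak without an overlapping treated peak lost. For H3K27ac, 3 of 12 window peaks were gained with MC_2580, where 11.2% of all its peaks were. RA at 0.01 µM gained 26 of 37 against 53.9% of that list, RA at 1 µM 17 of 27 against 33.3%, and the combination 19 of 28 against 37.1%. Of the 12 DMSO peaks in the windows, 4, 1, 2 and 2 were lost in the same order, beside 35.0%, 18.3%, 20.9% and 21.2% over the list. When peaks within 1 kb were joined, the gained peaks of the 3 RA-containing treatments numbered 9, 10 and 10. H3K4me3 lost none of its 8 DMSO peaks in any treatment (over the list 2.20%, 3.97%, 6.12% and 6.29%), but 3, 7, 7 and 6 of them lacked a treated peak with a reciprocal overlap of 50%. It gained 3 of 10 with MC_2580 (33.5%), 5 of 12 with RA at 0.01 µM (29.2%), 8 of 15 with RA at 1 µM (25.6%) and 8 of 15 in the combination (26.6%). With MC_2580 the share of gained H3K4me3 peaks was thus close to the share in the list.

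H3K4me2 was the mark whose peak number moved most between the RA doses. DMSO held 13 of its peaks, MC_2580 20, the lower RA dose 22, the higher 45 and the combination 36. Gained peaks numbered 7 of 20 (22.3% of the list), 13 of 22 (14.3%), 35 of 45 (22.1%) and 25 of 36 (23.2%). When peaks within 1 kb were joined, those of the 3 RA-containing treatments numbered 6, 16 and 13. The whole H3K4me2 list with RA at 1 µM also held more and narrower peaks. It had 46010 of median width 0.780 kb, against 39302 of 1.00 kb with RA at 0.01 µM. H3K4me1 gained 2 of 24 (8.54%), 9 of 31 (11.7%), 9 of 28 (14.2%) and 7 of 27 (21.9%), and lost 1, 1, 0 and 0 of 23 (13.1%, 19.5%, 14.0% and 7.79%).

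A base-by-base pattern, chosen after the peak maps had been seen, counted bases with a peak in all 3 RA-containing conditions and in neither DMSO nor MC_2580. It held 43.3% of the bases that H3K27ac covered in any condition in the windows, against 6.41% over the genome. The shares were 30.3% against 2.31% for H3K4me3, 27.5% against 2.15% for H3K4me1 and 18.9% against 2.02% for H3K4me2. Bases covered only with MC_2580 and in the combination made up 0.0516% for H3K27ac, 0.181% for H3K4me3, 0.490% for H3K4me1 and 0.671% for H3K4me2. Over the genome these were 0.659%, 2.38%, 2.14% and 2.31%. Merged regions of the RA-only kind were fewer: 2 of 22 for H3K4me1 (3.66% over the genome), 4 of 42 for H3K4me2 (1.97%) and 2 of 16 for H3K4me3 (1.85%). Bases gained with MC_2580 that RA also gained fall in neither pattern. The genes were picked as RA targets with earlier results of these data known, so the shares describe them and rank nothing.

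**Figure D2:**
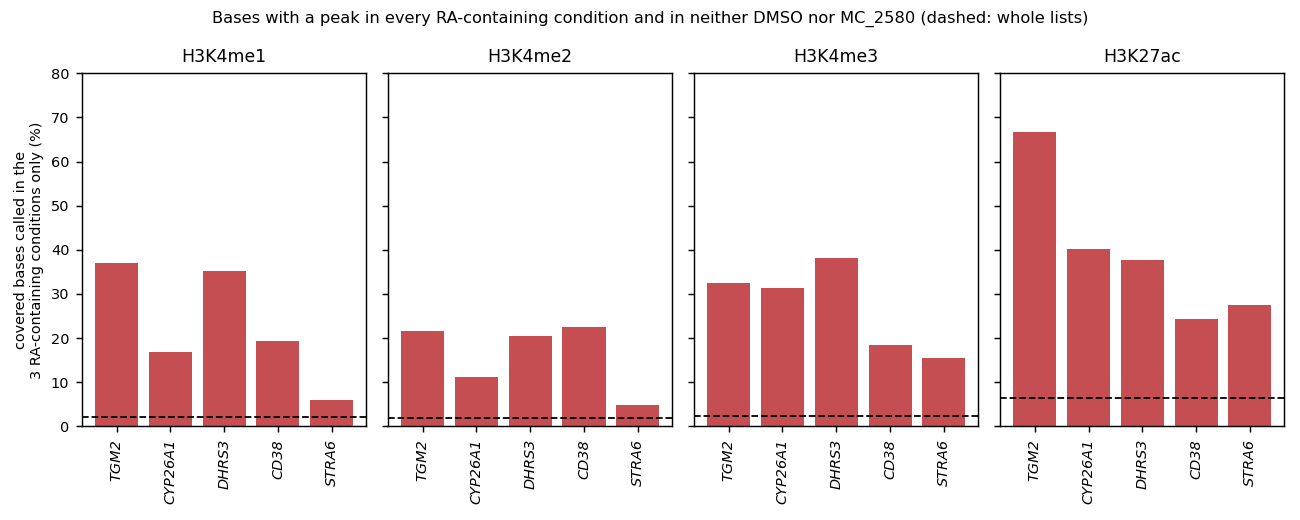
Share (%, vertical axis) of the bases covered in any condition that had a peak in all 3 RA-containing conditions and in neither DMSO nor MC_2580, per gene (bars) and mark (panels); the dashed line is the share over the whole lists. All bars lie above their line, from 4.88% for STRA6 H3K4me2 to 66.8% for TGM2 H3K27ac.

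The window of STRA6, the retinol receptor, had a small H3K27ac territory in DMSO that was smaller with MC_2580 and largest with the lower RA dose. H3K27ac covered 10.9 kb in DMSO, 2.67 kb with MC_2580, 48.4 kb with RA at 0.01 µM, 18.2 kb with RA at 1 µM and 23.4 kb in the combination. The ratio of 0.245 with MC_2580 was the only 2-fold lower value among the windows and marks with all peaks used (at a minimum score of 100 that of CD38 was too), and 24.3% of all intervals of that length with H3K27ac were also 2-fold lower there. The ratio of 4.46 with RA at 0.01 µM compares with 43.3% of intervals 2-fold higher and that of 2.16 in the combination with 27.5%, and the low-dose list covers 199 Mb against 127 Mb in DMSO and 142 Mb with RA at 1 µM; as a share of all bases the list covers, the STRA6 ratio with RA at 0.01 µM was 2.85. In the combination it was 1.84 as such a share, 1.95 with windows narrowed by 10 kb and 1.72 with windows widened by 20 kb. At a minimum score of 100 the 3 RA ratios were 15.4, 4.73 and 5.47. The DMSO peaks scored 98, 104 and 60, so that filter left only the peak of 104 in DMSO. The MC_2580 peak scored 52, near the lowest score of its list, 50.00.

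The doses differed in where they covered the STRA6 window. Whether the peaks on its lower side belong to STRA6 or to a neighbour such as ISLR was not determined. Between chr15:72247979 and 72269181, RA at 0.01 µM had 4 H3K27ac peaks, RA at 1 µM had 1 of 1.92 kb and the combination none. DMSO had 2 peaks there, of 4.84 and 3.15 kb with scores of 98 and 104, which both RA at 1 µM and the combination lacked. At chr15:72269462-72289829 every condition had a peak, of 2.87, 2.67, 19.9, 13.0 and 17.2 kb. A further region at chr15:72290233-72298829 had peaks only in the 3 RA-containing conditions, of 8.60, 3.34 and 6.21 kb of covered bases.

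The single H3K4me3 peak of STRA6, at chr15:72278048-72283665, was 2.70 kb wide in DMSO, 3.86 kb with MC_2580, 5.42 kb and 5.62 kb with the lower and higher RA dose, and 4.72 kb in the combination. The authors' score per peak, which grows as the peak caller's p-value shrinks and has 3100 as its most common value, was 138, 308, 3100, 3100 and 1475. A score of 3100 or more was reached by 36.1% and 33.6% of the H3K4me3 peaks with RA at the lower and higher dose. The ratios of 2.01 and 2.08 with RA were just past 2-fold (30.0% and 23.5% of intervals 2-fold higher) and fell to 1.34 and 1.56 as shares of the list. H3K4me1 differed little, at 16.1, 15.6, 15.1, 17.4 and 19.1 kb, with 4 peaks in each condition and none gained or lost. Its main region, chr15:72276980-72285604, covered 7.63, 7.42, 7.65, 7.98 and 8.62 kb. H3K4me2 covered 2.47, 2.30, 3.51, 5.22 and 3.52 kb, past 2-fold with RA at 1 µM (8.57% of intervals), though at 1.91 with peaks within 1 kb joined and 1.85 with widened windows. Its region at chr15:72279594-72283119 had a peak in all 5 conditions.

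**Figure D3:**
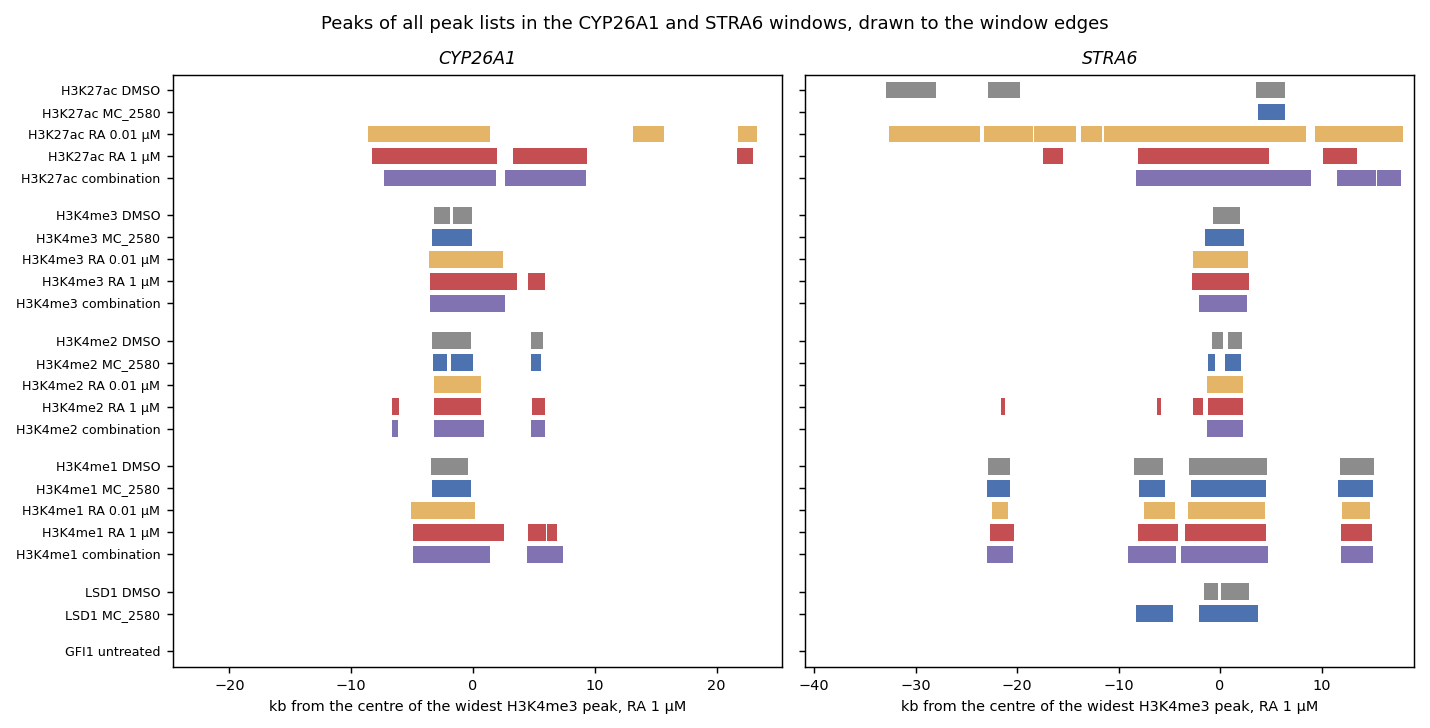
Peaks (blocks) of the 23 lists in the CYP26A1 (left) and STRA6 (right) windows, against the distance in kb from the centre of the widest H3K4me3 peak with RA 1 µM; each row is 1 library and colours mark the condition. The H3K27ac rows of CYP26A1 are empty in DMSO and MC_2580, and its LSD1 and GFI1 rows are empty.

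CYP26A1, the RA-clearing enzyme, had no H3K27ac peak in DMSO or with MC_2580 and several with RA. H3K27ac covered 14.0 kb with RA at 0.01 µM, 17.6 kb with RA at 1 µM and 15.8 kb in the combination. The main region, chr10:94816006-94826612, held a peak of 10.0, 10.3 and 9.14 kb with scores of 1960, 2689 and 2779. Beside it, chr10:94827271-94834002 had a peak with RA at 1 µM (6.03 kb, score 69) and in the combination (6.66 kb, score 542) and none with RA at 0.01 µM alone. The score of 69 is near the lowest of its list, 50.00. This pattern made up 1 of 31 H3K27ac regions in the windows and 2.54% over the genome. Conversely, chr10:94837779-94840293 had a peak with RA at 0.01 µM only (2.52 kb, score 131), a pattern of 4 of 31 regions and 29.7% over the genome. At chr10:94846309-94847942 both RA doses had a peak and the combination none. Of intervals of the window's length, 44.1%, 24.6% and 28.1% were covered at least 2-fold more with RA at 0.01 µM, RA at 1 µM and in the combination than in DMSO.

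Methylation of H3K4 at CYP26A1, unlike its H3K27ac, was already called in DMSO. H3K4me2 at chr10:94821307-94825507 had a score of 3100 in all 5 conditions, with 3.18, 2.89, 3.90, 3.89 and 4.04 kb of covered bases. H3K4me3 at chr10:94821047-94828219 covered 2.88 kb in DMSO, 3.31 kb with MC_2580, 6.04 kb with RA at 0.01 µM, 7.14 kb with RA at 1 µM and 6.18 kb in the combination. The top score there was 333, 885, 3100, 3100 and 2018. In DMSO this territory was 2 separate peaks, and in each treated condition 1. The window ratios of H3K4me3 with RA, 2.10, 2.95 and 2.15, stood beside 30.1%, 23.7% and 23.7% of intervals 2-fold higher. As shares of the list, the first and last of these fell under 2-fold, and with peaks within 1 kb joined they were 1.94 and 1.98. H3K4me1 covered 3.06, 3.19, 5.18, 9.74 and 9.33 kb, past 2-fold in the last 2 (8.36% and 14.9% of intervals). Most of this lay at chr10:94819593-94827159, and a second region at chr10:94829057-94832065 was called with RA at 1 µM (2.33 kb) and in the combination (3.01 kb) only.

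DHRS3, the retinaldehyde reductase, had the most peaks of the 5 genes and, in each of the 5 conditions, the most bases covered by H3K4me3. H3K27ac covered 12.7 kb in DMSO, 14.2 kb with MC_2580, 63.6 kb with RA at 0.01 µM, 52.0 kb with RA at 1 µM and 49.6 kb in the combination. The ratios were 1.11, 5.01, 4.10 and 3.90, and 41.0%, 22.1% and 26.0% of intervals were 2-fold higher with the 3 RA-containing treatments. The region with the most covered bases, chr1:12569668-12595607, covered 7.93, 8.31, 22.7, 25.8 and 21.5 kb, with a top score of 495 in DMSO, 416 with MC_2580 and 3100 in each RA-containing condition. Beside it, chr1:12595749-12608913 covered 4.78, 5.84, 12.7, 10.1 and 10.5 kb.

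DHRS3 held 5 of the 8 H3K27ac regions of the windows with a peak in every RA-containing condition and in neither DMSO nor MC_2580; such regions were 8 of 31 in the windows and 5.44% over the genome. They were chr1:12528392-12534005, 12534261-12538785, 12546995-12551654, 12566673-12569457 and 12611526-12615134. Their top scores ranged up to 652, at chr1:12546995-12551654 with RA at 0.01 µM. The first crosses the window's lower edge. A further 2 DHRS3 regions had a peak with RA at 0.01 µM alone, a pattern of 29.7% of all H3K27ac regions.

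H3K4me3 at DHRS3 covered 9.16 kb in DMSO, 16.5 kb with MC_2580, 29.7 kb and 31.2 kb with the lower and higher RA dose, and 28.0 kb in the combination. At chr1:12589226-12604937 it covered 5.08, 7.04, 15.5, 15.7 and 15.0 kb, with a score of 2936 in DMSO and 3100 elsewhere, so the territory was about as wide at both RA doses and in the combination. The window ratio was 3.24 with RA at 0.01 µM and 3.06 in the combination, and with RA at either dose or in the combination 28.6%, 22.3% and 21.7% of intervals were 2-fold higher; with MC_2580 it stayed under 2-fold. Another 2 regions, chr1:12544816-12548504 and chr1:12583863-12588171, had a peak in every condition but DMSO. Their top scores were 150, 120, 124 and 67 in the first, and 103, 577, 429 and 320 in the second. Over the lists 33.5%, 29.2%, 25.6% and 26.6% of the treated H3K4me3 peaks lacked a DMSO peak. The share of this pattern among all regions was not computed. H3K4me2 at chr1:12576038-12579990 and chr1:12596406-12603980 had a score of 3100 in all 5 conditions, and 6 more H3K4me2 regions were called with RA at 1 µM and in the combination only. Some of these lay directly beside those 2 regions, as did chr1:12579997-12581117 and chr1:12604012-12604691. Others scored low, as did chr1:12590926-12591581 with 51 and 59. DHRS3 also held the single region of any mark called with MC_2580 and in the combination only, an H3K4me2 region at chr1:12614057-12614596. Its scores were 55, near the lowest score of that list, 50.00, and 236. This pattern made up 1 of 42 H3K4me2 regions in the windows, near its share of 2.80% over the genome. A further H3K4me2 region of DHRS3 was called with RA only, chr1:12573757-12574802. The pattern of RA at 1 µM and the combination made up 13 of 42 H3K4me2 regions in the windows and 2.39% over the genome, with nearby regions counted apart. H3K4me2 covered bases were past 2-fold with RA at 1 µM (2.59, with 7.20% of intervals) and in the combination (3.05, with 10.7%). H3K4me1 covered 20.2, 21.4, 34.5, 39.7 and 41.2 kb, just past 2-fold in the combination (12.9% of intervals). That call ended at a minimum score of 100 (1.99), with lists of equal length (1.93) and as a share of the list (1.96). In its main region, chr1:12568965-12605356, the combination covered 35.8 kb, and its widest peak, of 28.7 kb, overlapped all 3 DMSO peaks.

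**Figure D4:**
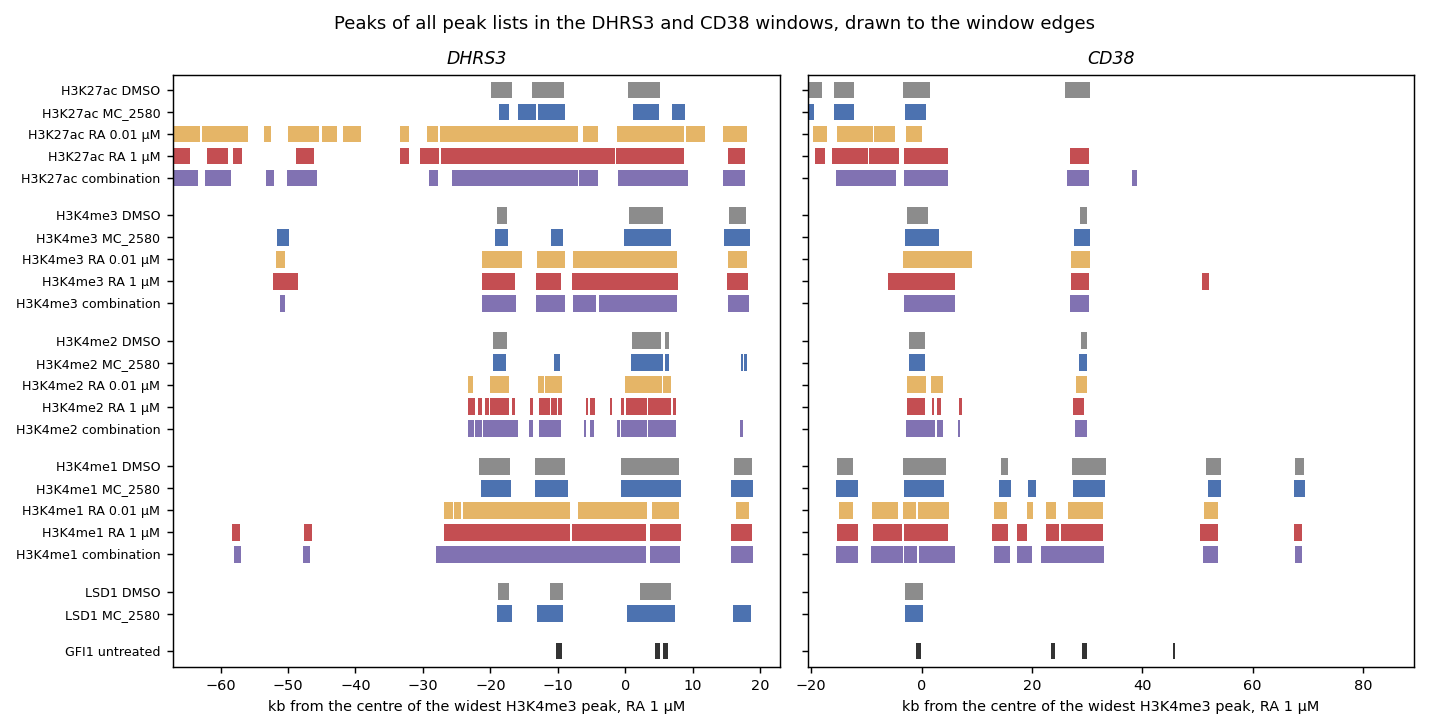
Peaks (blocks) of the 23 lists in the DHRS3 (left) and CD38 (right) windows, against the distance in kb from the centre of the widest H3K4me3 peak with RA 1 µM; each row is 1 library and colours mark the condition. In the 3 RA-containing rows H3K27ac of DHRS3 also has separate blocks at the far left, where DMSO and MC_2580 have none, and the outer right of the CD38 window is nearly empty.

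TGM2, the transglutaminase, had the most bases covered by H3K27ac of the 5 windows in each RA-containing condition, though not in DMSO or with MC_2580. H3K27ac covered 9.54 kb in DMSO, 10.5 kb with MC_2580, 69.3 kb with RA at 0.01 µM, 75.0 kb with RA at 1 µM and 70.6 kb in the combination, or 11.9%, 13.1%, 86.7%, 93.8% and 88.2% of the window. The ratios to DMSO were 1.10, 7.27, 7.86 and 7.39, and 42.0%, 22.4% and 26.3% of intervals were 2-fold higher with the 3 RA-containing treatments. A single peak with RA at 1 µM, chr20:36208005-36269337, was 61.3 kb wide, and 6 of the 38808 peaks of that list were wider. It runs past the upper edge of the window and belongs to a merged region, chr20:36186356-36269337, with peaks in all 5 conditions. Away from it, chr20:36180911-36184233 was called with RA only, with scores of 234, 278 and 52. When all windows were widened by 20 kb, the 3 RA-containing ratios were 4.46, 5.27 and 4.83, at a minimum score of 100 they were 11.5, 12.7 and 10.8, and the first was 4.64 as a share of the list.

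TGM2 was also the gene without H3K4me3 in DMSO. H3K4me3 covered 1.76 kb with MC_2580, 9.18 kb with RA at 0.01 µM, 13.1 kb with RA at 1 µM and 12.4 kb in the combination; 34.2%, 29.0%, 22.1% and 22.1% of intervals were 2-fold higher. The region chr20:36219456-36228477 had peaks with RA only, of 4.84, 9.02 and 4.23 kb, each with a score of 3100. A second such region, chr20:36242862-36245358, had weaker peaks with scores of 304, 186 and 81. The only peak with MC_2580 lay at chr20:36205295-36207782, with a score of 77, and RA at either dose and the combination had peaks of 60, 57 and 70 there. These 4 values are near the lowest score of the lists, 50.00.

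Inside the H3K4me3 region of TGM2, H3K4me2 was already called in DMSO. At chr20:36224598-36228015 it covered 1.28 kb in DMSO, 0.782 kb with MC_2580, 2.70 kb and 3.16 kb with the lower and higher RA dose and 3.37 kb in the combination, with top scores of 984, 1745, 3100, 3100 and 3100. Over the window H3K4me2 had ratios of 0.910, 2.46, 3.84 and 4.22 (5.38%, 7.61% and 11.3% of intervals 2-fold higher in the 3 with RA). At a minimum score of 100 the ratio for RA at 0.01 µM was 1.99. With windows widened by 20 kb it was 1.78, and with the TGM2 window lengthened by 20 kb 1.91. H3K4me1 covered 18.8, 24.5, 48.3, 56.7 and 55.7 kb, or ratios of 1.30, 2.57, 3.03 and 2.97 (6.17%, 7.36% and 13.5% with RA). With RA at 1 µM a single H3K4me1 peak, chr20:36201124-36241596, was 40.5 kb wide, where DMSO had separate peaks of at most 3.58 kb. RA-only regions of these marks were chr20:36170059-36173780 for H3K4me1, and chr20:36214308-36214987 and chr20:36229557-36231993 for H3K4me2, the last on the LSD1 and GFI1 site described below.

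**Figure D5:**
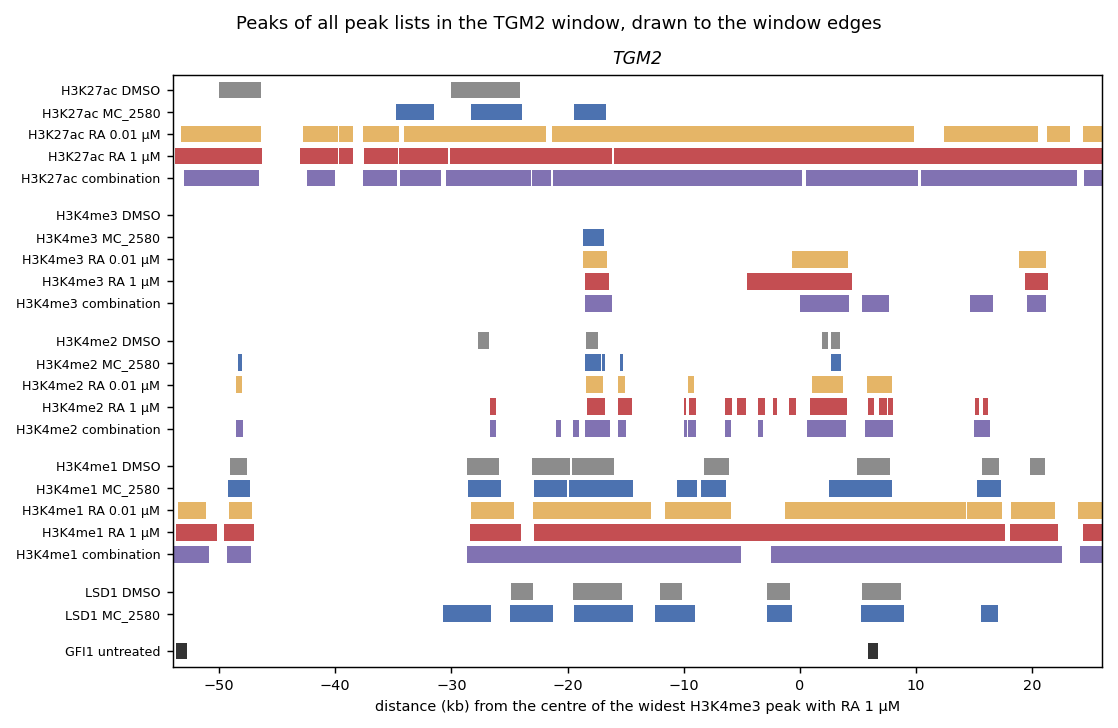
Peaks (blocks) of the 23 lists in the TGM2 window, against the distance in kb from the centre of the widest H3K4me3 peak with RA 1 µM; each row is 1 library and colours mark the condition. H3K27ac fills most of the window in the 3 RA-containing rows and 11.9% and 13.1% of it in DMSO and MC_2580, while H3K4me3 is empty in DMSO.

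CD38, the NAD-consuming surface enzyme, differed from the other genes in that no treatment had H3K27ac past 2-fold with the windows as given. H3K27ac was present in DMSO, as at TGM2, DHRS3 and STRA6. It covered 15.5 kb in DMSO, 8.65 kb with MC_2580, 15.8 kb with RA at 0.01 µM, 24.8 kb with RA at 1 µM and 23.6 kb in the combination, with ratios of 0.559, 1.02, 1.60 and 1.52. With windows narrowed by 10 kb the first was 0.414 and the last 2.01. The region with the most covered bases, chr4:15374515-15386524, covered 3.57, 3.68, 10.5, 11.7 and 10.8 kb, with top scores of 61, 64, 547, 546 and 71. At chr4:15387378-15395476, which holds the LSD1 peak described below, H3K27ac covered 4.81, 3.87, 2.90, 7.87 and 7.95 kb. The top scores there were 1578, 561, 3100, 3100 and 3100. The region across the lower window edge, chr4:15362854-15373513, had top scores of 2649, 285, 397, 2495 and 1249. At chr4:15416592-15421122, H3K27ac peaks were called in DMSO (4.53 kb), with RA at 1 µM (3.42 kb) and in the combination (3.98 kb), and not with MC_2580 or RA at 0.01 µM. The top scores of these 3 were 126, 494 and 263, and the share of this call pattern among all regions was not computed.

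H3K4me3 at CD38 was broader with RA, as at the other genes. It covered 5.06 kb in DMSO, 8.82 kb with MC_2580, 15.8 kb with RA at 0.01 µM, 16.7 kb with RA at 1 µM and 12.5 kb in the combination. The ratios were 1.74, 3.13, 3.30 and 2.47, the last being 1.87 as a share of the list, and for the 3 treatments with RA 28.0%, 21.4% and 20.8% of intervals were 2-fold higher. The main region, chr4:15384509-15399726, covered 3.83, 6.00, 12.5, 12.3 and 9.12 kb with a score of 3100 in all 5 conditions, so its strength could not be ranked. H3K4me2 covered 3.91, 4.30, 7.36, 7.13 and 8.61 kb, past 2-fold in the combination (10.1% of intervals) but at 1.86 with widened windows, and its main region at chr4:15387806-15393204 also had a score of 3100 throughout, while the region next to it, chr4:15393356-15394501, was called with RA only. H3K4me1 covered 22.9, 25.0, 29.5, 36.3 and 39.8 kb, its largest region was chr4:15381426-15396695, and 1 region, chr4:15412369-15415853, was called with RA only.

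LSD1 was found at 4 of the 5 genes and GFI1 at 3. In DMSO LSD1 had 5 peaks in the TGM2 window, 3 at DHRS3, 2 at STRA6, 1 at CD38 and none at CYP26A1. Intervals of the same lengths held LSD1 in 19.1%, 20.5%, 15.8%, 23.3% and 14.0% of cases, so absence at CYP26A1 is the usual state for its length. GFI1 had 4 peaks at CD38, 3 at DHRS3, 2 at TGM2 and none at STRA6 or CYP26A1, where 35.5%, 31.9%, 30.0% and 25.6% of intervals of the first 4 lengths held it.

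At TGM2 the LSD1 peaks of DMSO lay at chr20:36199091-36200999, 36204413-36208643, 36211950-36213816, 36221122-36223128 and 36229354-36232690. The last was the strongest, with a score of 958, and a GFI1 peak lay on it (chr20:36229804-36230729, score 100). The other GFI1 peak, chr20:36170273-36171216 (score 105), had no LSD1. The LSD1 peak at 36221122 lies inside the merged RA-only H3K4me3 region. Of the H3K4me3 lists, however, only that of RA at 1 µM had a peak on it. With MC_2580 each of the 5 was kept and 2 were added, chr20:36193268-36197381 (score 673) and chr20:36239564-36241021 (score 413). LSD1 covered 13.4 kb in DMSO and 23.7 kb with MC_2580.

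At DHRS3 the LSD1 peaks of DMSO were chr1:12578247-12579848, 12585967-12587813 and 12599323-12603907, with scores of 501, 544 and 987. All 3 GFI1 peaks, chr1:12586862-12587784, 12601486-12602282 and 12602667-12603385, lay on the latter 2, with the last 2 GFI1 peaks on the same LSD1 peak. The GFI1 scores were 107, 60 and 66, where the lowest score of the GFI1 list is 50.01. MC_2580 added an LSD1 peak at chr1:12613099-12615813 (score 648), in a region with H3K4me3 in all 5 conditions. The LSD1 covered bases were 8.03 kb and 15.8 kb.

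CD38 had a single LSD1 peak of nearly the same extent in both conditions, chr4:15387583-15390842 in DMSO (score 1234) and chr4:15387609-15390884 with MC_2580 (score 2427). Of the GFI1 peaks, 1 lay on it, at chr4:15389643-15390587 (score 105). The other 3, chr4:15414128-15414921, 15419796-15420675 and 15436162-15436688 (scores 60, 84 and 58), had no LSD1, and the last had no histone peak of any list. At STRA6 the 2 LSD1 peaks of DMSO, chr15:72279306-72280615 and 72280904-72283717 (scores 348 and 358), were replaced by 1 peak over both, chr15:72278745-72284624 (score 1523), and another appeared at chr15:72272532-72276174 (score 390). The covered bases there were 4.12 and 9.52 kb, the only LSD1 value past 2-fold, as in 48.5% of intervals.

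Across the 5 windows LSD1 covered 28.8 kb in DMSO and 52.3 kb with MC_2580, a ratio of 1.82, and 1.92 over the lists. Of 14 peaks with MC_2580, 4 were gained where 41.4% of the list was, and none of 11 DMSO peaks was lost, against 7.79%. The 2 LSD1 lists start at different lowest scores, 234.04 and 357.00, so a filter that differed between them bears on these numbers. Of the 9 GFI1 peaks, 5 lay on an LSD1 peak of DMSO, and over the genome 30.0% did.

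The lists themselves differed in length, which bears on every count above. The H3K27ac lists held between 24552 (MC_2580) and 55793 peaks (RA at 0.01 µM), H3K4me1 from 54181 to 72810, H3K4me2 from 39302 to 50736 and H3K4me3 from 21688 in DMSO to 29872. Read depth per library is not known from the lists, and a list can be longer through depth alone.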

How the data were processed

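Reads were handled on hg18 with MACS 1.4.1, Bowtie 1.0.1, CASAVA 1.8, bcl2fastq 2 and FastQC 0.10.0 and 0.11.5, which the submitters' processing notes list without role or order. Each of the 23 deposited lists gives intervals from 1 library and a score, the authors' value per peak, used here only to describe, rank or filter peaks within a list. A start below 0 in 8 peaks was set to 0, and starts are printed 1-based. The 2 input samples of the 25 entered no comparison.

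Peaks overlapping a window by at least 1 base were members. Covered bases were counted inside the window. They were called where they differed at least 2-fold from DMSO; the background was all intervals of the window's length laid along the chromosomes and covered in either list. Shared peaks overlapped by at least 1 base. Overlaps were computed with Python 3.11.15 and NumPy 2.4.6, tested on simulated lists, and drawn with Matplotlib 3.10.9. Regions were named by a rule: every LSD1 and GFI1 peak, per mark the region with the most covered bases, and regions separating the RA-containing from the other conditions; further regions were singled out after their values were seen. Members and lists were chosen with earlier results of these data known. Other retinoid genes and markers of cell types were not used here, for want of hg18 gene positions.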

Additional observations from a re-analysis of the deposited data

How the results depend on the processing

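No paired analysis was possible because each group has 1 library. Alternatives were a minimum score of 100, lists of equal length, peaks within 1 kb joined, windows widened by 20 kb or narrowed by 10 kb, 50% reciprocal overlap, whole peaks by centre, 1 LSD1 minimum score and shares of each list's covered bases. Chosen after seeing the data were leaving out the TGM2 window, lengthening it by 20 kb, leaving out the RA 0.01 µM or the combination library, and reading the RA-only pattern base by base. Without replicates or read depth, no difference has an error.

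Of the 180 covered-base ratios and RA-only shares of the 5 windows under these alternatives, 177 stayed within 1.5 times the main value and none reversed. The other 3 were the H3K4me3 ratio with MC_2580, 1.10 in place of 1.73 as a share of the list, the H3K27ac ratio with RA at 0.01 µM, 2.78 in place of 4.35 as a share of the list, and the RA-only share of H3K4me2 bases, 32.7% in place of 18.9% without the RA 0.01 µM library. Single-gene values crossed 2-fold in either direction. Falls under it are given beside the values in the report, but most rises past it are not. For example, the CYP26A1 H3K4me1 ratio with RA at 0.01 µM was 3.31 in place of 1.69 with widened windows. The CD38 H3K4me3 ratio with MC_2580 was then 2.31 in place of 1.74. At the minimum score, the STRA6 H3K4me2 ratios with RA at 0.01 µM and in the combination were 2.66 and 2.67 in place of 1.42 and 1.43. The CD38 H3K27ac ratio with MC_2580 was 0.417 at the minimum score.

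Counts of peaks depended more on the processing: 48 of 144 gained counts and 30 of 144 lost counts moved past 1.5 times. In the following, low and high stand for the RA doses of 0.01 µM and 1 µM given alone. At the minimum score, gained peaks were 1 for H3K27ac with MC_2580, 4 for H3K4me1 with MC_2580, 8 (low), 21 (high) and 15 (combination) for H3K4me2, and 4 for H3K4me3 at high and in the combination. Lost peaks were then 1 for H3K27ac at high and in the combination, 2 (low) and 1 (high) for H3K4me1, and 1 for H3K4me2 with MC_2580 and at low. With lists of equal length, gained peaks were 5 (MC_2580) and 17 (low) for H3K27ac, 4 for H3K4me1 in the combination, 3 for H3K4me2 with MC_2580, and 1 (MC_2580), 5 (high) and 5 (combination) for H3K4me3, while H3K4me1 lost 1 at high and in the combination. With peaks within 1 kb joined, gained peaks were 9 (low), 10 (high) and 10 (combination) for H3K27ac, 1 (MC_2580), 4 (low) and 4 (high) for H3K4me1, and 4 (MC_2580), 6 (low), 16 (high) and 13 (combination) for H3K4me2, which lost 1 with MC_2580. With reciprocal overlap, gained peaks were 5 for H3K27ac with MC_2580, 17 (low), 15 (high) and 15 (combination) for H3K4me1, and 5 (MC_2580), 11 (low), 14 (high) and 13 (combination) for H3K4me3. Lost peaks were then 7, 8 and 7 for H3K27ac at low, high and in the combination, 9, 10 and 11 for H3K4me1, 7, 8 and 8 for H3K4me2, and 3 (MC_2580), 7, 7 and 6 for H3K4me3. With widened windows, gained peaks were 16 for H3K4me1 at low, high and in the combination, and 6 (MC_2580) and 9 (low) for H3K4me3, with 3 lost for H3K27ac at low and 2 for H3K4me2 at high. With narrowed windows, H3K4me2 gained 4 and H3K4me1 lost 0 with MC_2580. Without the TGM2 window, which leaves fewer peaks to count, gained peaks were 1 (MC_2580) and 12 (combination) for H3K27ac, 1 for H3K4me1 with MC_2580, 4 (MC_2580), 7 (low), 21 (high) and 14 (combination) for H3K4me2, and 2 (low), 5 (high) and 3 (combination) for H3K4me3. Lost peaks were then 0 for H3K4me1 with MC_2580, and 0 (MC_2580), 1 (low), 0 (high) and 0 (combination) for H3K4me2. LSD1 peaks numbered 6 in DMSO and 7 with MC_2580 without that window, and GFI1 peaks 3 at the minimum score and 14 with widened windows. Beyond these constructions the cause was not tested.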
